A study of Homo sapiens with 3 samples.

Results

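Sprouty and SPRED proteins are inhibitors of the ERK pathway, and 6 of their genes (SPRY1, SPRY2, SPRY4, SPRED1, SPRED2 and SPRED3) were followed in PANC-1 cells. The members were taken by gene name, with earlier results of these data known. Probes were named by matching the RefSeq accession printed on the array to a gene, and every probe of a listed gene was kept. Of the 6 genes, 5 had a probe, which gave 6 probes among 25705 named probes for 19699 genes. No probe matched SPRED3, which is not analysed here. SPRY4 was read by 2 probes and each of the other genes by 1.

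The arrays came from PANC-1, an established human pancreatic carcinoma line grown in serum, and all were labelled with a single dye. The control array held cells without either agent, and the labels do not name a vehicle. The cantharidin array held cells given 20 µM cantharidin and the okadaic acid array cells given 20 µM okadaic acid (OA), in both cases for 24 h, by the characteristics given for each sample. The treatment protocol, which is written once for both agents, does not make clear that the dose applies to OA. Both agents are known inhibitors of protein phosphatase 2A (PP2A), and the series title names them as such. There was 1 array per group and no replicate culture, so no difference below has a test. Differences are on the log2 scale, with the 75th percentile of each array set to 0, and a gene was called when it was at least 1.5-fold higher or lower.

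Growth factor receptors switch on RAS, which passes the signal through RAF and MEK kinases to ERK. ERK in turn raises the transcription of its own inhibitors, and Sprouty and SPRED genes are textbook members of this negative feedback. Sprouty proteins interfere with the steps between the receptor and RAF, whereas SPRED proteins bring the RAS inactivator neurofibromin (NF1) to the membrane. PP2A is known to bind Sprouty 2 and remove phosphate from it.

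The series title names the factor Sp1, and ETS factors are known targets of ERK, so the bases before the transcription start are shown for the members on which the results turn. They were taken from RefSeq (GRCh38.p14), are read 5′ to 3′ along the gene, and end just before the start. The table gave 11 starts for the 6 genes and does not pair a start with the transcript that a probe reads. Shown are the second of 2 starts of SPRY1, the first of 3 of SPRY2, the only one of SPRY4 and the first of 2 of SPRED2, and for SPRY1 and SPRY2 the start that held a match was chosen. Capitals mark the GC box bound by Sp1 (GGGCGG or CCGCCC) and an ETS site of 6 letters (CCGGAA or TTCCGG). The shorter ETS core GGAA was not searched.
SPRY1 (chr4:123398136-123398385, plus strand): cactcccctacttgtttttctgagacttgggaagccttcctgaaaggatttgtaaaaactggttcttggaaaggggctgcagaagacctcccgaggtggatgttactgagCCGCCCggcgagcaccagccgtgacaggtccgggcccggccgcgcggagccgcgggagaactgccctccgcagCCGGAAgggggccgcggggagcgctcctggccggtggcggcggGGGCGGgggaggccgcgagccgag
SPRY2 (chr13:80341127-80341376, minus strand): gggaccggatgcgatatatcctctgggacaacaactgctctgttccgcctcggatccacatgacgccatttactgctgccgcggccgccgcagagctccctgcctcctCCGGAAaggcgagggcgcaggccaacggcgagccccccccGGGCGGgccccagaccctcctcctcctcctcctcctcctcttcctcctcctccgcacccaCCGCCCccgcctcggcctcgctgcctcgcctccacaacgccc
SPRY4 (chr5:142324248-142324497, minus strand): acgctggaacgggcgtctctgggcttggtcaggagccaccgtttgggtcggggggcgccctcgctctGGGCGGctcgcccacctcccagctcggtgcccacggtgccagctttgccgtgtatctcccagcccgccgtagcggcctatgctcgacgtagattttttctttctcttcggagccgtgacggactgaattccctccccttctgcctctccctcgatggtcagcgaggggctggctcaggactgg
SPRED2 (chr2:65432600-65432849, minus strand): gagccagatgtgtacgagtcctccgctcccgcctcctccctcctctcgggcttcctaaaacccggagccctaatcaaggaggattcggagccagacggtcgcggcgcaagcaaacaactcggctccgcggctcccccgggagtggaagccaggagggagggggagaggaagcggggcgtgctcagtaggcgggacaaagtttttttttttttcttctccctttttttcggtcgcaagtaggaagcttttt

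In the 250 bases before the start, SPRY1 held GC boxes that began 140 and 24 bases upstream and the ETS site at 67 bases. SPRY2 held the same set of letters, with GC boxes at 102 and 42 bases and the ETS site at 142 bases. These were the only windows of the family with the full ETS site, so 2 of 11 windows held it, against 14.5% of 35116 promoters. Windows without it can still hold the shorter core, as those of SPRY4 and SPRED2 do. SPRY4 held a single GC box at 183 bases and SPRED2 held none of the letters searched. A GC box was found in 5 of the 11 windows, against 42.6% of all promoters. The remaining starts of SPRY1, SPRY2 and SPRED2 held no match. Both strands were searched, also for the cyclic AMP response element (TGACGTCA, in 1.65% of promoters), the AP-1 site (TGANTCA, 6.57%) and the E-box (CACGTG, 6.34%). Of these, only an AP-1 site upstream of SPRED3 was found. A match describes letters, and binding was not measured.

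Each array gave a value for 34041 probes, of which between 23071 and 25103 were well above background. The lowest signal of such a probe was between 21.9 and 58.0 intensity units, and every member probe exceeded it at least 5.73-fold on its array. No transcript spot was saturated. Each member probe had a single spot, so its error was taken from probes with 10 spots and a like brightness on the same array. At the brightness of the members, the replicate spot pairs that lay 1.5-fold or more apart made up at most 1.43% for control, 2.82% for cantharidin and 0.382% for OA. This spread leaves out variation between cultures. The epithelial markers KRT8, KRT18, KRT19, KRT7 and EPCAM and the mesenchymal marker VIM were well above background on all arrays, while CDH1 was so only in control cells. Among 11 markers of blood, endothelium and fibroblasts, 8 were well above background on each array (PECAM1 and LUM on none). HBB was so only on the treated arrays and COL1A1 only on the control array. The summed intensity in control, cantharidin and OA cells was 3198, 2510 and 11900 for the blood markers (with 2535, 1838 and 11044 from the brightest marker on each array), 2261, 1315 and 1589 for endothelium and 689, 255 and 184 for fibroblasts. Their part in the results was not tested.

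The first comparison asked how cantharidin changed the inhibitors. All 5 measured genes were past 1.5-fold, in both directions. SPRY1, SPRY2 and SPRED1 were lower and SPRY4 and SPRED2 were higher than in control cells. Over the 16644 genes compared, 34.1% were called lower and 27.5% higher, 61.6% in all, so a call in itself was common. The median difference of the 5 members was -1.18, against -0.16 over all genes. Fewer cells with a transcript and less of it per cell cannot be told apart in these samples.

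SPRY1, a Sprouty that restrains receptor signals in epithelia, showed the largest difference from control of the family. Its intensity was 942 in control cells, 160 under cantharidin and 972 under OA. The cantharidin array was thus the low one, and the other arrays lay close together. The log2 difference under cantharidin was -2.42 ± 0.18 (spot error), or 5.36-fold lower, and 970 of the 16644 genes were as low or lower. Under OA it was -0.21 ± 0.10, or 1.16-fold lower, which is not a call, and its sign changed to 0.05 without scaling.

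SPRY2, the family member best known as a feedback inhibitor of RAS signalling, lay on opposite sides of control under the agents. Its intensity was 6424 in control cells, 1935 under cantharidin and 14919 under OA. The control value lay between those of the agents. SPRY2 was 3.02-fold lower under cantharidin (log2 difference -1.59 ± 0.13) and 1.95-fold higher under OA (0.96 ± 0.08). The direction was kept under each of 12 processing alternatives for both agents, from -1.73 to -1.40 and from 0.84 to 1.22. Changing the background filter, setting dim signals to a floor, taking the median over probes or raising the threshold could not move these values. SPRY2 had 1 probe, which was well above background on every array.

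SPRY4, a Sprouty that acts on growth factor and RAF signals, was higher under both agents on its brighter probe. This probe gave intensities of 1915, 3927 and 6153 in control, cantharidin and OA cells. The differences were 2.26-fold (1.17 ± 0.10) and 2.69-fold (1.43 ± 0.08) above control. The dimmer probe, assigned to the same transcript, read 200, 155 and 415. It differed from control by -0.24 ± 0.21 under cantharidin and by 0.79 ± 0.15 under OA. The probes therefore disagreed for cantharidin, where the median over both was 0.47 and not a call, while both were past 1.5-fold for OA.

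**Figure D1:**
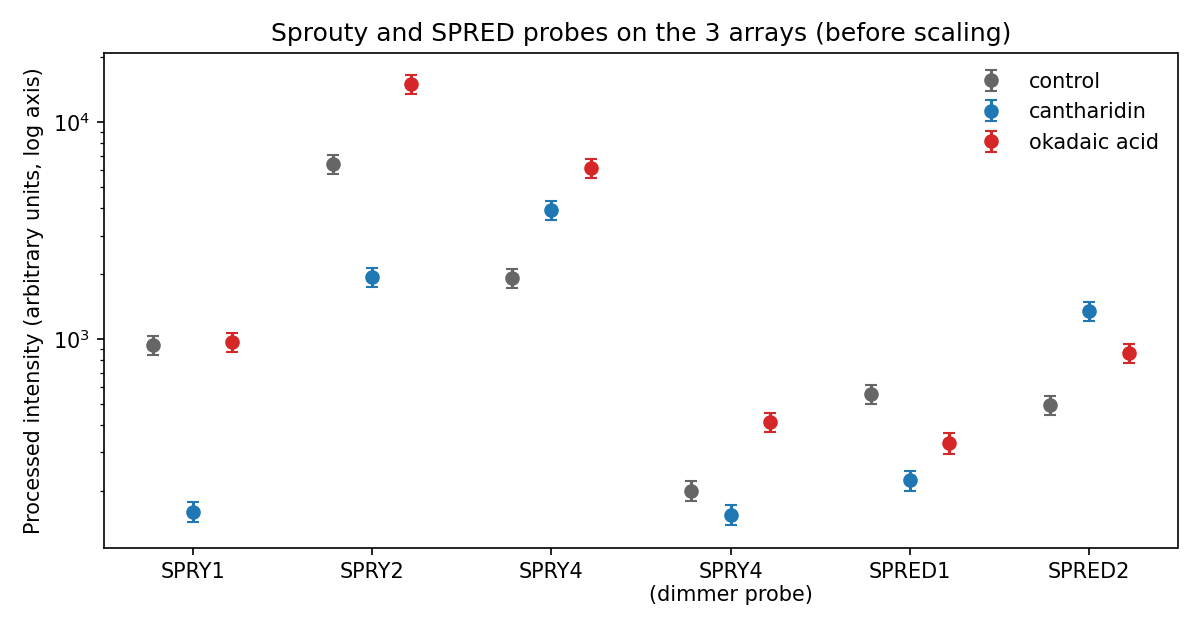
Processed intensity (arbitrary units before scaling, log axis) of the 6 member probes on the control, cantharidin and OA arrays. Points are single spots and bars are the error that the scanner software assigned to each spot. SPRY2 lay at 6424, 1935 and 14919 on the 3 arrays, and SPRY1 was low on the cantharidin array alone.

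The SPRED genes differed in direction under cantharidin. SPRED1, whose loss is known to overactivate RAS signalling in people, had intensities of 556, 223 and 332 in control, cantharidin and OA cells. It was lower on both treated arrays, by 2.27-fold under cantharidin (-1.18 ± 0.17) and 2.00-fold under OA (-1.0 ± 0.12). SPRED2, a close relative with the same kind of membrane-directing domain, read 497, 1341 and 863. It was highest under cantharidin, at 2.97-fold above control (1.57 ± 0.12). Under OA it was 1.45-fold higher (0.54 ± 0.10), just short of a call, and it passed 1.5-fold in 4 of 12 alternatives. Centring the differences within 16 blocks of the array moved their cantharidin values to -0.74 for SPRED1 and 2.01 for SPRED2.

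For OA, SPRY2 and SPRY4 were thus called higher, SPRED1 lower, and SPRY1 and SPRED2 neither. Of 16166 genes compared, 28.1% were called higher and 28.8% lower, 56.9% in all, and higher genes made up 49.4% of the calls, or 62.0% without scaling. The members had a median difference of 0.54, against 0.01 over all genes. Both agents were set against the same control array, so the values are given side by side only. SPRY3, the remaining Sprouty gene, was outside the listed members. Its brighter probe read 363, 174 and 377, which put it 1.90-fold below control with cantharidin and 1.15-fold below with OA, while its dimmer probe, at 70.0, 69.9 and 92.0, differed by 0.14 under either agent.

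**Figure D2:**
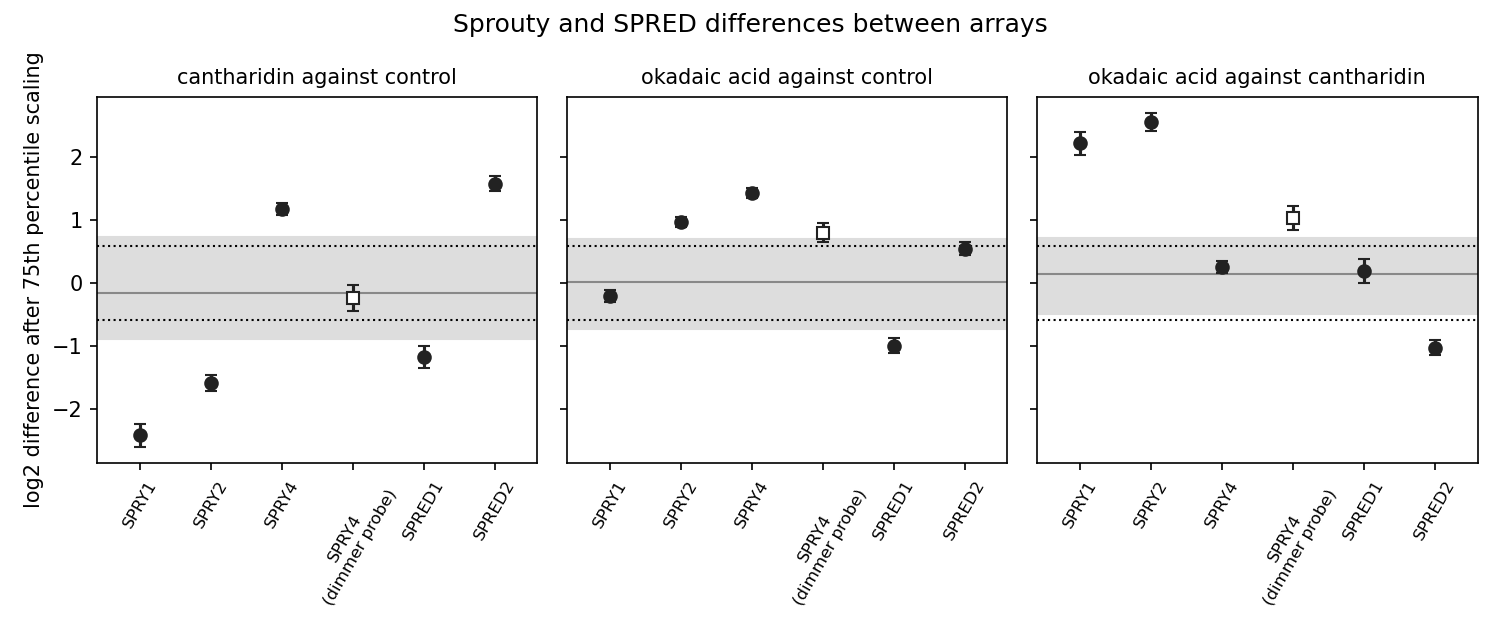
Log2 differences of the member probes for cantharidin against control, OA against control and OA against cantharidin. Filled circles are the brightest probe of a gene and the open square is the dimmer SPRY4 probe, bars are the spot error, dotted lines mark 1.5-fold, and the grey band with its line shows the middle 50% and the median of all genes compared. SPRY2 sits at -1.59 in the first panel and at 0.96 in the second.

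The agents were next set against each other, with the doubt about the OA dose given above. SPRY2 was 5.87-fold higher under OA than under cantharidin (2.55 ± 0.14), and 330 of 16200 genes differed as much or more in this direction. SPRY1 was 4.64-fold higher (2.21 ± 0.18), at place 496 from the top. SPRED2 was 2.04-fold lower (-1.03 ± 0.12). SPRY4 and SPRED1 differed by 1.19-fold (0.25 ± 0.10) and 1.14-fold (0.18 ± 0.19) and were not called, although the dimmer SPRY4 probe was 2.04-fold higher under OA (1.03 ± 0.19). In all, 2 members were called higher and 1 lower, against 29.5% and 22.3% of all genes, or 51.8% either way. The share of higher genes among the calls was 56.9%, or 77.2% without scaling. Whether the promoter windows shown above bear on these signals was not tested.

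**Figure D3:**
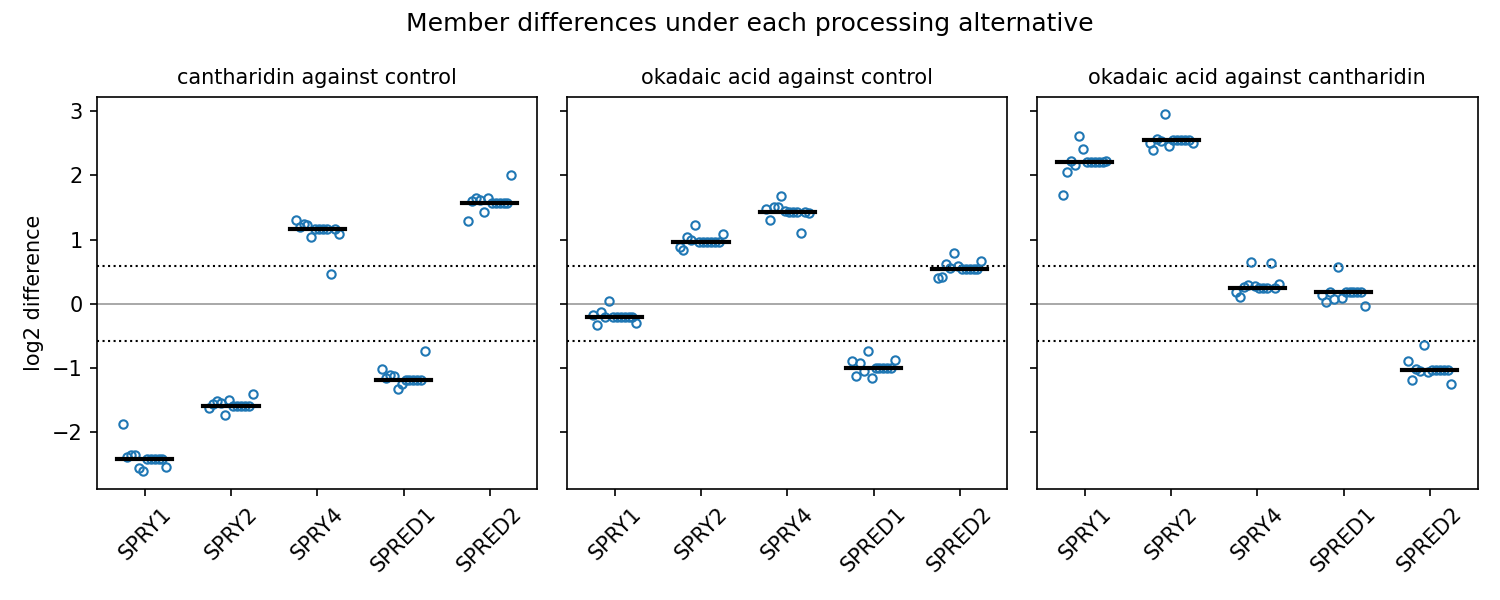
Log2 differences of the 5 members in the 3 comparisons under the processing as reported (black bars) and under 12 alternatives (blue circles). Dotted lines mark 1.5-fold. All values of SPRY2 lie below the lower line for cantharidin and above the upper line for OA, while SPRED2 straddles the upper line for OA.

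The genes with the most similar pair of differences against control were sought for each member among 14222 genes well above background on all arrays, by the Euclidean distance between the pairs. RRBP1 came nearest to SPRY2, at -1.61 and 0.94 for cantharidin and OA (distance 0.023), followed by COX14 and OTUD6B. TSPAN12, NFYA and STIMATE were nearest to SPRY1, with TSPAN12 at -2.48 and -0.20 (distance 0.062). FAM225A, TMEM150A and METRNL lay nearest to SPRY4, SNX5, PSMA2 and JAM3 to SPRED1, and TUBB6, USP47 and ETF1 to SPRED2, all within a distance of 0.056. Each pair rests on 3 arrays and a shared control.

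Other inhibitors of the pathway, here grouped as feedback inhibitors, were then examined from a list of 8 genes, all of which were measured. PEBP1 on this list is not an established feedback inhibitor. Under cantharidin 2 of the 8 genes were called higher and 4 lower, with a median of -0.44. Under OA 5 were called higher and 2 lower, with a median of 1.03. Over all genes compared, 27.5% were called higher and 34.1% lower under cantharidin (median -0.16). For OA the shares over all genes were 28.1% and 28.8% (median 0.01). The same shares and medians apply to the lists below. DUSP6 and DUSP5, phosphatases that inactivate ERK in the cytoplasm and the nucleus, were higher under both agents. DUSP6 read 3533, 14923 and 16731 in control, cantharidin and OA cells, or 4.65-fold and 3.97-fold above control, and DUSP5 was 1.83-fold and 1.98-fold higher. DUSP4, a nuclear phosphatase for MAP kinases, was at 1.13-fold below control under cantharidin and 2.11-fold higher under OA.

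LRIG1, which promotes the breakdown of growth factor receptors, went the way of SPRY2. Its intensity was 650 in control cells, 364 under cantharidin and 1956 under OA, which was 1.62-fold lower and 2.52-fold higher. DUSP7, another ERK phosphatase, read 42.1, 13.1 and 126 in control, cantharidin and OA cells. Its control signal was near the lowest signal well above background on that array, which was 35.0. DUSP7 was not well above background under cantharidin, at least 1.75-fold lower than control, and was 2.51-fold higher under OA. PEBP1, an inhibitor of the step from RAF to MEK, was 4.44-fold and 4.23-fold lower, and IL17RD, a membrane inhibitor of growth factor signals, 3.14-fold and 3.02-fold lower. ERRFI1, an inhibitor of the EGF receptor, was not called, at 1.19-fold above and 1.26-fold below control. Between the agents, DUSP4, DUSP7 and LRIG1 were called higher under OA and none of the 8 genes lower, with ERRFI1 just short of it at -0.58.

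Transcripts listed here as driven by ERK did not share a direction. Of 12 such genes, 3 were called higher and 6 lower under cantharidin (median -0.56), and 4 higher and 4 lower under OA (median -0.42). EGR1, an immediate early transcription factor, was 85.8-fold and 87.3-fold above control. FOS, a component of AP-1, exceeded control 2.85-fold with cantharidin and 17.7-fold with OA. ETV5, an ETS factor, was 3.74-fold higher under cantharidin and differed by 1.27-fold under OA. MYC was 13.6-fold and 5.69-fold lower, and IER3, an early response gene, was 2.68-fold lower and 2.10-fold higher.

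Among 14 genes for proteins that bind or modify Sprouty or SPRED, 4 were called higher and 3 lower under cantharidin (median -0.07), and 5 higher and 2 lower under OA (median 0.34). CBL, the ubiquitin ligase that Sprouty 2 binds, was 5.60-fold and 1.82-fold higher. SIAH2, a ligase that targets Sprouty 2 for breakdown, was 2.32-fold and 2.92-fold higher, and TESK1, a kinase that binds Sprouty, 2.63-fold and 3.77-fold higher. NF1, the SPRED partner, differed by 1.29-fold under cantharidin and was 3.36-fold higher under OA on its brightest probe, but its 3 probes ranged from -4.55 to -0.25 for cantharidin and from -2.21 to 1.75 for OA. CAV1, a membrane scaffold, was 2.55-fold lower under cantharidin and differed by 1.04-fold under OA, while its other probe gave -3.27 and -2.77.

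**Figure D4:**
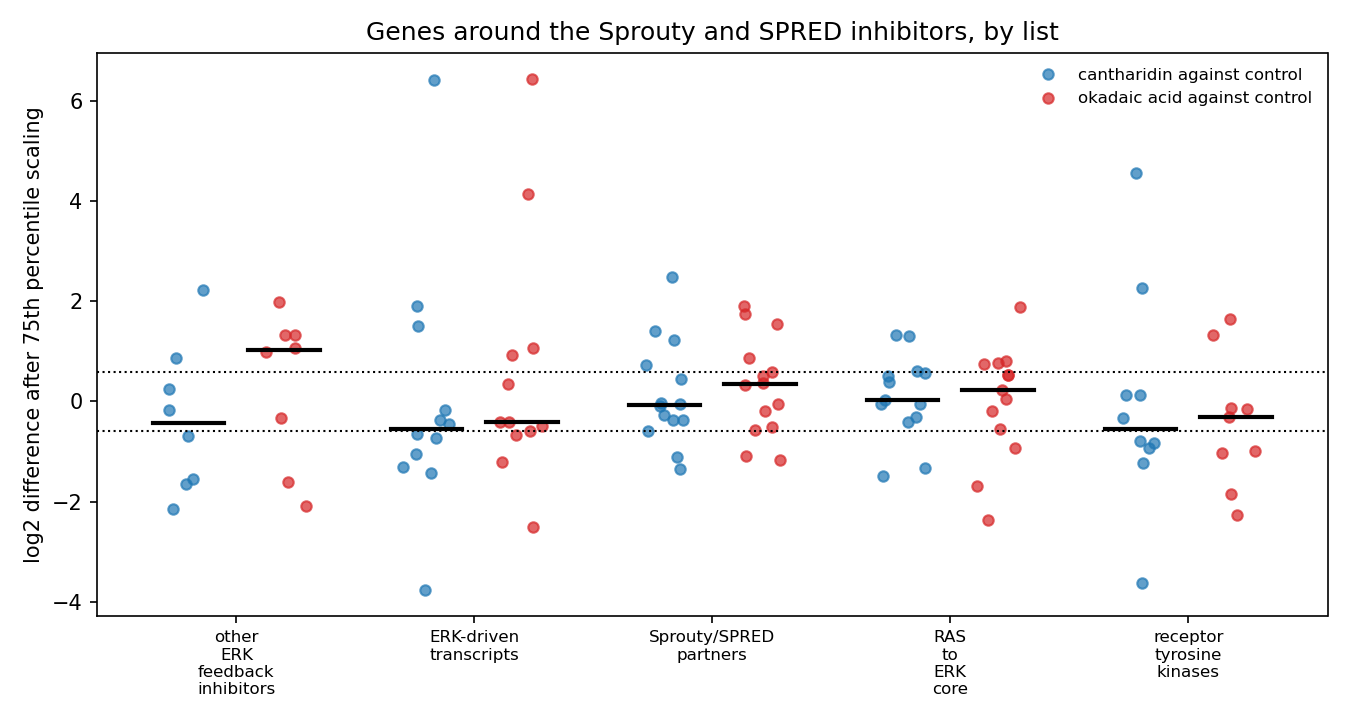
Log2 differences against control of the genes in 5 lists around the Sprouty and SPRED inhibitors, under cantharidin (blue) and OA (red). Points are genes by their brightest probe as measured, also where one array was not well above background, black bars are list medians and dotted lines mark 1.5-fold. The other feedback inhibitors had medians of -0.44 and 1.03.

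The kinases and receptors upstream were described in the same way. In the 13 genes from RAS to ERK, 3 were called higher and 2 lower under cantharidin (median 0.03), and 4 higher and 3 lower under OA (median 0.23). ARAF was 2.50-fold and 5.14-fold lower and MAPK3, which encodes ERK1, 2.80-fold and 3.22-fold lower. BRAF was 2.46-fold and 1.69-fold higher.

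Of 12 receptor tyrosine kinases, 10 were compared for cantharidin and 9 for OA. There were 2 called higher and 5 lower under cantharidin (median -0.56), and 2 higher and 4 lower under OA (median -0.32). With every array required to be well above background, 0 were higher under cantharidin and 2 lower under OA, and with no filter 5 were higher under OA. ERBB2 was 12.3-fold and 4.81-fold lower. PDGFRB exceeded control at least 11.8-fold with cantharidin and was not well above background in the other cells. EGFR was 1.91-fold lower under cantharidin and 2.49-fold higher under OA on its brightest probe, with its 3 probes between -3.23 and -0.85 for cantharidin and between -0.58 and 1.32 for OA. FGFR3 was 3.13-fold higher under OA on its brightest probe, with 0.32 on the other, and differed by 1.26-fold under cantharidin. KDR, which encodes a VEGF receptor, lay 4.84-fold above control with cantharidin, whereas with OA it was at least 2.36-fold lower and not well above background.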

How the data were processed

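Total RNA of PANC-1 cells (control, cantharidin or OA) was read on 3 Agilent 1-colour arrays, 1 per group, grouped by sample title. The authors deposited spot intensity values from Feature Extraction 11.0.1.1, background-subtracted and detrended within each array per the file headers (probe annotation hg19). A further deposited table held normalized log2 values, whose making is not given in the sources used here. Its columns had a median of 7.74 each and correlated best with the log2 intensity of their own array (r of at least 0.998 across probes), and it served as an alternative.

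After outlier-flagged spots were dropped, the log2 intensity was averaged per probe and each array's 75th percentile was subtracted (784, 713 and 936 intensity units for control, cantharidin and OA). Accessions were matched without version to RefSeq genes of GRCh38.p14. The brightest probe stood for a gene in counts. Genes were compared when well above background on at least 1 of 2 arrays and called at 1.5-fold. The study's figure legend for the microarray gives the same fold. Where 1 array was dim, a fold is a lower bound, with the dim array set to its own signal or to its lowest signal well above background, whichever was higher. The spot error is the root of the summed squared SDs of replicate spots, from probes within 0.5 log2 units in brightness among 999 probes with 10 spots. Flagged spots were left out of it. No p-value was computed, and the number of arrays limits precision. All arrays shared a slide and scan, so position on the slide cannot be told apart from the group.

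The members and lists were chosen with earlier results of these data known. Named genes were all members, SPRY3, the other feedback inhibitors, the 3 genes with the most similar differences per member, and up to 5 called genes per other list with the largest difference under either agent, of which some from the RAS to ERK list are not reported here. Alternatives were the normexp background correction (offset 50, on median spot and background intensity), quantile normalization, scaling to the median, scaling to the probes detected on every array, no scaling, the deposited table, no filter, a filter on all 3 arrays, dim signals at the array floor, the median over probes and a 2-fold threshold. Centring within 16 blocks of the array was chosen after the data were seen. The calling of probes was tested on simulated data with planted shifts well past the threshold. Gene counts and shifts near the threshold were not tested in this way. Software comprised Python 3.11.15 (numpy 2.4.6, pandas 2.3.3, matplotlib 3.10.9) and R 4.3.3 (limma 3.58.1).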

Additional observations from a re-analysis of the deposited data

Results flagged for a closer look

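SPRY2 differed from control in opposite directions under the agents, at -1.59 under cantharidin and 0.96 under OA on the log2 scale. The dimmer SPRY4 probe did so too, at -0.24 and 0.79, of which the first is not past 1.5-fold and is close to the spot error. With 1 array per group these differences between the agents were not tested.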

How the results depend on the processing

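Of 180 member values under alternative processing, 171 kept their call, 6 gained one and 3 lost one. No called member value changed its sign. Several alternatives could not change these results. The filters and the array floor left every member value as it was, since all member probes were well above background on every array. The median over probes could move SPRY4 alone, and the 2-fold threshold could change a call but no value. The median over probes left 1 member higher under cantharidin, since SPRY4 dropped to 0.47, and put SPRY4 at 0.64 between the agents, where it reached 0.65 without scaling. A 2-fold threshold left 1 member higher and 0 lower under OA, with SPRY2 at 0.96 and SPRED1 at -1.0. SPRED2 passed 1.5-fold under OA when scaled to probes well above background (0.62), without scaling (0.79), in the deposited table (0.59) and after centring within blocks (0.67). Without scaling, the medians passed 1.5-fold for the ERK-driven transcripts (-0.69) and receptor tyrosine kinases (-0.70) under cantharidin and for the Sprouty and SPRED partners under OA (0.59). The receptor median under cantharidin was also -0.83 when every array had to be well above background, -0.59 with the median over probes and -0.60 after centring. In these cases the cause was not tested. Scaling and background correction moved the median of all genes between -0.30 and -0.09 for cantharidin, between -0.11 and 0.26 for OA and between -0.02 and 0.52 between the agents. Between the agents 4781 genes were called higher and 3616 lower, against 7629 and 2254 without scaling, 7181 higher with no filter and 3181 higher after normexp. A 2-fold threshold lowered the counts to 2676 and 2198 between the agents, and the lower genes from 5676 to 3707 for cantharidin and from 4656 to 3067 for OA. Called genes of the lists changed by over 1.5 times as follows. At 2-fold under cantharidin, higher feedback inhibitors went from 2 to 1 and lower receptors from 5 to 2, and under OA lower ERK-driven transcripts went from 4 to 2, higher partners from 5 to 3 and higher RAS to ERK genes from 4 to 1. Under OA, lower ERK-driven transcripts were 2 without scaling, lower partners went from 2 to 4 when scaled to the median or with the median over probes, and higher RAS to ERK genes were 2 with the latter. Centring took higher RAS to ERK genes under cantharidin from 3 to 5. No paired analysis was possible because each group had 1 array, and no array could be left out. The lowest signal well above background was 58.0 on the OA array, against 21.9 on the cantharidin array.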
